A study of Mus musculus with 22 samples.

Results

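The E2F and DP transcription factor family comprises 10 mouse genes, E2f1 to E2f8, Tfdp1 and Tfdp2. Its members were taken by gene symbol, with earlier results of these data known. Of these 10, 9 were in the deposited table of 11208 genes, and E2f6 was not in it. RNA was measured by poly(A) RNA sequencing in NIH/3T3, an established mouse embryonic fibroblast line. All cells had been starved for 48 h in medium with 0.25% serum. One line carried a stably integrated, doxycycline-inducible E2F1 construct and the other the same kind of construct without an insert (empty vector, EV). The E2F1 line was collected at 0 h, without doxycycline, and 2, 6 and 12 h after 500 ng/ml doxycycline, and the EV line at the same times with the same dose. The EV line was also collected 2, 6 and 12 h after 10% serum, without doxycycline, and the starved EV libraries at 0 h served as the start of both EV courses. These 11 groups had 2 libraries each, 22 in all.

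What the labels give limits each group as a model. They do not say whether each line was 1 clone, what promoter drove the construct, from which species its E2F1 sequence came, or whether the 2 libraries of a group came from separate cultures. The p-values therefore measure the spread between these libraries, which may be technical. The table has 1 row for the mouse gene E2f1, so RNA from the chromosomal gene and from the construct cannot be told apart there. Whether that row counts RNA from the construct at all is not known.

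E2F proteins bind promoters of genes for DNA replication and the cell cycle, most of them as dimers with a DP protein, encoded by Tfdp1 or Tfdp2. E2F1, E2F2 and E2F3 are known as activators, E2F4 and E2F5 as repressors that act with the pocket proteins in resting cells, and E2F6 as a repressor that works with Polycomb-type complexes. E2F7 and E2F8 are atypical repressors that bind DNA without DP. In quiescent fibroblasts the pocket proteins restrain E2F activity, and cyclin-dependent kinases relieve that restraint after serum is added; several E2F genes are themselves known E2F targets.

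The promoters of 5 members whose RNA was higher at 6 h of E2F1 induction are shown because each held a match to the E2F consensus. The windows are RefSeq sequences on GRCm38.p6, from 250 bases before to 50 bases after an annotated start, written 5′ to 3′ along the gene's strand. Capitals mark matches to the motif TTCCCGC (which reads GCGGGAA when it lies on the other strand), to its variant TTGGCGC (which reads GCGCCAA there), to the variant TTCGCGC (which reads GCGCGAA there) or to the variant TTGCCGC (which reads GCGGCAA there), all searched on both strands. No match overlapped another. The E2f2 window lies at chr4:136172024-136172323 on the plus strand, the E2f3 window at chr13:29986014-29986313 on the minus strand, and the E2f7 window at chr10:110745189-110745488 on the plus strand. The E2f8 window lies at chr7:48881547-48881846 on the minus strand and the Tfdp1 window at chr8:13338501-13338800 on the plus strand.
E2f2: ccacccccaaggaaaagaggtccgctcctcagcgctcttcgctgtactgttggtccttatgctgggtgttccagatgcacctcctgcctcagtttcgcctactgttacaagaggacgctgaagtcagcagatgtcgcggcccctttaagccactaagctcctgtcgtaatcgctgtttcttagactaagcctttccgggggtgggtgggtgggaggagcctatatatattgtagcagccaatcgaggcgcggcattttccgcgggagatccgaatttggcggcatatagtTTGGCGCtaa
E2f3: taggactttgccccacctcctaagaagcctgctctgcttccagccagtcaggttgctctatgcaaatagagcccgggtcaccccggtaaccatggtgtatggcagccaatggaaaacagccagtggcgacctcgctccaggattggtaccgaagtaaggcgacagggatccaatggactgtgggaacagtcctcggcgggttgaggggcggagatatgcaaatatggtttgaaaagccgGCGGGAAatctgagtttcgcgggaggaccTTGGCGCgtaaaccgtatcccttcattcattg
E2f7: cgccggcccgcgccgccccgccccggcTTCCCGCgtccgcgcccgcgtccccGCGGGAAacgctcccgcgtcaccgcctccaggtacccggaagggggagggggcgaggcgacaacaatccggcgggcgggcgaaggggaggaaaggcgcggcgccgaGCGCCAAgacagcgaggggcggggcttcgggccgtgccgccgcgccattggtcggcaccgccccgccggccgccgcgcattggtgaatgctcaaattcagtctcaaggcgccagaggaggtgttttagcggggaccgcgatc
E2f8: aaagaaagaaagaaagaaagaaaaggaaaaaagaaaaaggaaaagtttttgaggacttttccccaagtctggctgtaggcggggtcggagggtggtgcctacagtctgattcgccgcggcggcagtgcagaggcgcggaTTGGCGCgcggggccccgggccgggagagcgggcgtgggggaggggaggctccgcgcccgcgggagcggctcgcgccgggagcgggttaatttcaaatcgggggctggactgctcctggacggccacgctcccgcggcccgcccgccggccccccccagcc
Tfdp1: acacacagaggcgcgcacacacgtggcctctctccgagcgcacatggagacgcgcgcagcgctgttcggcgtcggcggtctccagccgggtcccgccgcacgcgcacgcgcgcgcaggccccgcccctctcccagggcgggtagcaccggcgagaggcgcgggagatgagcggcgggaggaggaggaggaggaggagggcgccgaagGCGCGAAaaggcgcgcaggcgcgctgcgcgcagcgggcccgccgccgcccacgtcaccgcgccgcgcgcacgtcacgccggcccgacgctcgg

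Distances are counted from the annotated start to the first base of the match. The E2f7 window held 3 matches, at -223, -198 and -92 bases, and the E2f3 window held 2, at -11 and 18 bases. The E2f2 window held 1 match at 40 bases, the E2f8 window 1 at -111 bases and the Tfdp1 window 1 at -43 bases. The start used for this E2f2 window lies at -120 bases from the 5′ end of the gene in the GENCODE M21 annotation. The whole window, with its match, therefore lies before the gene as annotated there. RefSeq windows were found for 8 of the 10 members, 12 windows in all, and 6 of the 12 held a match, counting a Tfdp1 window that overlaps the one shown. Of all 32851 mouse windows of 300 bases, 9.57% held a match. The E2f1 window searched had none, but its start lies 466 bases inside the 5′ end of the gene in the GENCODE M21 annotation, so the upstream promoter was not searched. The E2f6 window also had no match to these letters. Neither had the pair of Tfdp2 windows, whose starts lie 62430 and 62973 bases inside the 5′ end of that gene in the same annotation, so its upstream promoter was not searched either. The other E2f2 and E2f3 windows, which start 8388 and 1672 bases inside, had no match. A match is a description of the letters and was not tested for binding.

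The values are normalized counts rounded to whole numbers, and their totals per library ran from 34014608 to 46057140. All 10 fibroblast markers looked for were in the table, with a summed level of 676869 to 1399787 across libraries. None of the 4 epithelial, 4 immune, 3 endothelial or 5 muscle and adipocyte markers was in it. The lowest mean of any gene in the table was 99.6, so a gene outside the table cannot be read as absent. Changes below are log2 differences of value + 1 with their standard error (SE), tested with limma, and a change was called at an adjusted p of at most 0.05 over all genes. In such bulk RNA, fewer cells with a transcript and less RNA per cell cannot be told apart.

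At rest, Tfdp1 and E2f4 were the most abundant members per kilobase of annotated exon. In the starved E2F1 line Tfdp1 stood at 1927 and 1656 normalized counts per kb (replicates 1 and 2) and E2f4 at 1579 and 1367, with no overlap. E2f1 followed at 540 and 519, then E2f5 at 327 and 339 and E2f3 at 198 and 176. E2f8 (106 and 93.3), Tfdp2 (97.3 and 94.2) and E2f7 (96.9 and 77.7) overlapped in level, and E2f2 was lowest at 17.0 and 22.3. The starved EV line had the same members at the top and bottom, with E2f4 at 1414 and 1416 per kb, Tfdp1 at 1305 and 1421 and E2f2 at 11.1 and 17.4. Using the longest transcript in place of all exons changed a member's rank in 34 of 99 member and group levels, so close ranks depend on the length used.

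The starved lines already differed in part of the family. Of the 9 members, 3 were higher in the E2F1 line at 0 h and none was lower, against 15% of all genes called, 8.86% higher and 6.17% lower. E2f8 stood at 576 and 508 in the E2F1 line and at 171 and 397 in the EV line, a difference of 1.05 ± 0.30 (adjusted p = 0.0262). Tfdp1 stood at 7071 and 6076 against 4789 and 5216 (0.39 ± 0.08, adjusted p = 0.00404), and E2f3 at 1076 and 956 against 742 and 854 (0.35 ± 0.11, adjusted p = 0.0401). In all 3 the libraries of the lines did not overlap. Without E2F1 line 0 h replicate 1 none of the 3 was called, with adjusted p of 0.148 for E2f8, 0.0869 for Tfdp1 and 0.27 for E2f3. E2f3 and E2f8 were also lost without replicate 2 of that group (0.0575 and 0.0753) and without EV 0 h replicate 1 (0.267 and 0.362), where the E2f8 difference fell to 0.45; without EV 0 h replicate 2 it was 1.66. E2f1 itself did not separate the starved lines, at 1703 and 1637 in the E2F1 line and 1635 and 1655 in the EV line. Of 20 S phase genes with known E2F sites, such as the replication licensing genes Mcm2 to Mcm7, 13 were higher in the starved E2F1 line and 0 lower, against the shares of all genes given above. No result without single libraries is given here for this list.

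E2F1 induction raised most of the family by 6 h. After 2 h, 1 of 9 members was called, higher, against 1.86% of all genes called, 0.865% higher and 0.99% lower. After 6 h, 7 of 9 were higher and none lower, where 51.7% of all genes were called, 28.8% higher and 22.9% lower. After 12 h, 6 of 9 were higher and none lower, where 61.5% of all genes were called, 31.8% higher and 29.7% lower. E2f4 and E2f5 were called at none of these times, except that quantile normalization put E2f4 lower at 6 h (-0.30, adjusted p = 0.017) and 12 h (-0.34, adjusted p = 0.00645). The count was then 1 lower beside 7 higher after 6 h, and 1 lower beside 6 higher after 12 h. Of 11208 genes, 3820 were then lower and 2657 higher after 6 h, and 4122 lower and 3131 higher after 12 h.

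**Figure D1:**
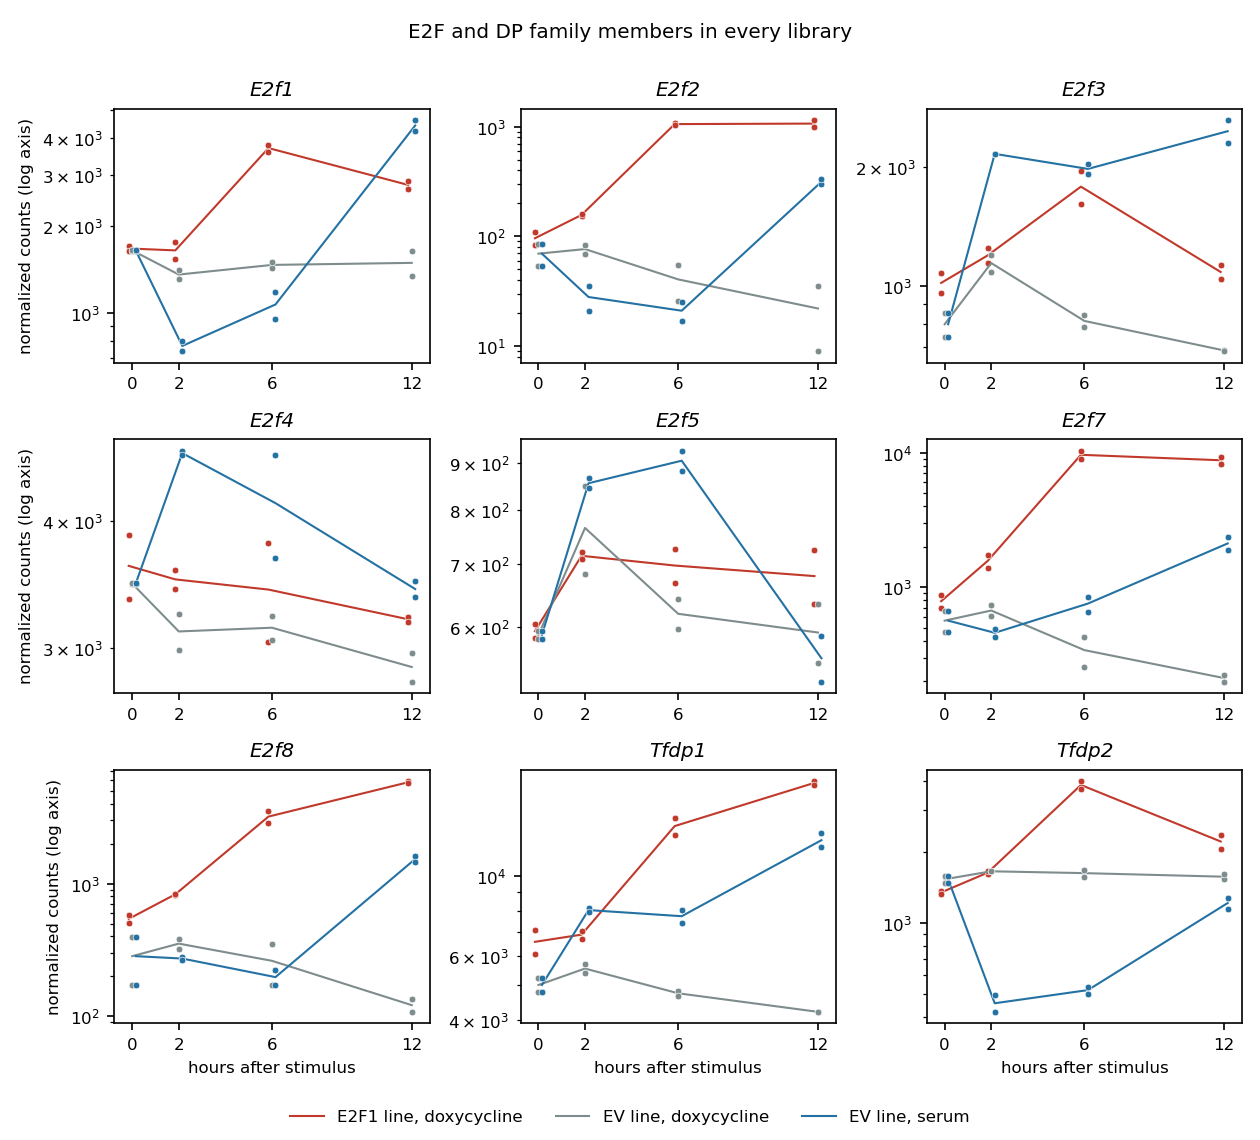
Normalized counts (log axis, a separate scale for each gene) of the 9 measured members against hours after the stimulus, with points for libraries and lines through group means; the EV 0 h libraries start both EV courses. E2f7 reached 10316 and 8937 in the E2F1 line at 6 h, against 424 at most with doxycycline in the EV line at 6 h.

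Among the activators, E2f1 is the mouse gene of the induced factor, but its row may not count RNA from the construct. The E2f1 row stood at 1703 and 1637 at 0 h, 1535 and 1755 at 2 h, 3806 and 3602 at 6 h, and 2683 and 2845 at 12 h. The 2 h libraries overlapped those at 0 h, so the mouse E2f1 row gave no sign of induction at that time, and both later groups lay above all starved libraries. The 6 h rise was 1.15 ± 0.11 (adjusted p = 9.61e-08) and the 12 h rise 0.73 ± 0.11 (adjusted p = 1.65e-05). From 6 to 12 h E2f1 fell by 0.42 ± 0.11 (adjusted p = 0.00649), a call lost without 12 h replicate 1 (adjusted p = 0.0524) or 6 h replicate 1 (0.0533).

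E2f2, another activator, rose from a low level. It stood at 83 and 109 at 0 h, 153 and 160 at 2 h, 1068 and 1037 at 6 h, and 1139 and 989 at 12 h. The 6 h and 12 h libraries were all above 0 h and overlapped each other. The rise was 3.45 ± 0.46 after 6 h (adjusted p = 6.36e-06) and 3.47 ± 0.46 after 12 h (adjusted p = 4.06e-06). At 2 h the difference of 0.71 ± 0.46 did not pass (adjusted p = 0.522), although both libraries lay above 0 h.

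E2f3, the third activator, changed for a shorter time. It stood at 1076 and 956 at 0 h, 1143 and 1244 at 2 h, 1951 and 1616 at 6 h, and 1038 and 1128 at 12 h. It rose by 0.81 ± 0.11 at 6 h (adjusted p = 7.77e-06) and fell by 0.71 ± 0.11 from 6 to 12 h (adjusted p = 0.000117). At 12 h its libraries overlapped those at 0 h (adjusted p = 0.478).

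The repressors showed little movement in the E2F1 line. E2f4 stood at 3871 and 3351 at 0 h, 3581 and 3423 at 2 h, 3807 and 3037 at 6 h, and 3216 and 3182 at 12 h. E2f5 stood at 583 and 604 at 0 h, 721 and 709 at 2 h, 728 and 668 at 6 h, and 725 and 635 at 12 h. E2f4 overlapped its starved level at 2 and 6 h and lay below it at 12 h (adjusted p = 0.179). E2f5 lay above its starved level at every later time, with an adjusted p of 0.311, 0.118 and 0.177 at 2, 6 and 12 h. These p-values do not show that either gene was constant, and the E2f4 call depended on the scaling as given above.

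E2f6, the Polycomb-linked repressor, has no library values here. In the authors' deposited table of genes changed at 6 h of doxycycline in the E2F1 line, E2f6 was listed with a log2 change of 4.02 and an adjusted p of 0.00162. The level behind that change cannot be read here, so it may rest on very low counts. It was listed in 1 of the 9 deposited tables of changed genes, which in these files hold only absolute log2 changes of at least 2. Of the 12 genes on a list of E2F6 partners in the Polycomb complex PRC1.6, 10 were higher and 2 lower at 6 h of E2F1 induction, where 51.7% of all genes were called, 28.8% higher and 22.9% lower. At 6 h of serum 7 of the 12 were higher and 0 lower, where 67.5% of all genes were called, 36.5% higher and 31% lower. Under E2F1 the lower pair were Mga (-0.47) and Max (-0.46), which encode DNA-binding subunits, and the largest rise was that of Yaf2 (1.17). The list's median at 6 h was 0.43 under E2F1 and 0.34 in serum, against -0.03 and 0.03 over all genes.

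Among the 9 members with library values, the atypical repressors and E2f2 had the largest rises at 6 and 12 h. E2f7 stood at 873 and 700 at 0 h, 1394 and 1743 at 2 h, 10316 and 8937 at 6 h, and 9316 and 8220 at 12 h. It was the 1 member called at 2 h (0.99 ± 0.21, adjusted p = 0.0219), with both 2 h libraries above both at 0 h. That call was lost without 2 h replicate 1 (adjusted p = 0.0731), 2 h replicate 2 (0.253) or 0 h replicate 2 (0.275). The rise of E2f7 was 3.62 ± 0.21 after 6 h (adjusted p = 2.11e-10), or 12.3-fold, and 3.48 ± 0.21 after 12 h (adjusted p = 4.25e-10). The 6 and 12 h libraries overlapped, and their difference of -0.13 did not pass (adjusted p = 0.653). The E2f7 promoter printed above is the one with 3 matches, and a link between matches and the size of a rise was not tested.

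E2f8 was higher at 12 h than at 6 h. It stood at 576 and 508 at 0 h, 822 and 837 at 2 h, 3505 and 2880 at 6 h, and 5897 and 5685 at 12 h. Each later group lay above the one before it, with no overlap. The rise was 2.55 ± 0.30 after 6 h (adjusted p = 1.41e-06) and 3.42 ± 0.30 after 12 h (adjusted p = 2.71e-08), or 10.7-fold. The 2 h difference of 0.62 ± 0.30 did not pass (adjusted p = 0.355). From 6 to 12 h E2f8 rose by 0.87 ± 0.30 (adjusted p = 0.0334), which was lost without any 1 of the 4 libraries involved, with an adjusted p of 0.117 without 12 h replicate 1, 0.101 without 12 h replicate 2, 0.0623 without 6 h replicate 1 and 0.174 without 6 h replicate 2. A transcript on the opposite strand, Gm2788, shares 610 exonic bases with E2f8, 11.2% of its exons. Use of strand in the counting is not given in the sources used here, so their reads cannot be told apart there.

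Both DP genes rose, on different courses. Tfdp1, which encodes the main dimer partner, stood at 7071 and 6076 at 0 h, 6702 and 7055 at 2 h, 14408 and 12938 at 6 h, and 18165 and 17785 at 12 h. Its 2 h libraries overlapped those at 0 h, and each of the later groups lay above all earlier ones. Its rise was 1.06 ± 0.08 after 6 h (adjusted p = 6.95e-09) and 1.46 ± 0.08 after 12 h (adjusted p = 1.58e-10). From 6 to 12 h Tfdp1 rose by 0.40 ± 0.08 (adjusted p = 0.00132). RefSeq lists a Tfdp1 pseudogene, Tfdp1-ps, on chromosome 1, so reads could be shared with it. Tfdp2, the other partner, stood at 1365 and 1322 at 0 h, 1603 and 1656 at 2 h, 3974 and 3685 at 6 h, and 2361 and 2054 at 12 h. Its rise was 1.51 ± 0.10 after 6 h (adjusted p = 7.29e-10) and 0.71 ± 0.10 after 12 h (adjusted p = 6.24e-06), and Tfdp2 fell by 0.80 ± 0.10 between them (adjusted p = 1.65e-05). From 6 to 12 h, 2 of 9 members rose and 3 fell, where 35.3% of all genes were called, 15.1% higher and 20.2% lower. Without E2F1 line 12 h replicate 1 or 6 h replicate 1, 3 members were called.

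Doxycycline in the EV line gives the background of the drug and the elapsed time without the E2F1 insert. After 2 h, 1 of 9 members was called, higher, against 7.35% of all genes called, 4.93% higher and 2.43% lower. That member was E2f3, at 1086 and 1196 against 742 and 854 at 0 h (0.52 ± 0.11, adjusted p = 0.00869), with no overlap. The call was lost without EV 0 h replicate 1 (adjusted p = 0.0789) or EV 2 h replicate 2 (0.113). After 6 h, 0 of 9 members were called by limma, against 0.134% of all genes. An unadjusted p under 0.05 was held by 661 of 11208 genes and by 1 of the 9 members. That member was E2f7, at 257 and 424 against 464 and 664 at 0 h.

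After 12 h of doxycycline in the EV line, 3 of 9 members fell and none rose, against 4.17% of all genes called, 0.749% higher and 3.42% lower. E2f7 went from 464 and 664 at 0 h to 223 and 199 (a log2 change of -1.39 ± 0.21, adjusted p = 0.00172). E2f8 went from 171 and 397 to 108 and 135 (-1.10 ± 0.30, adjusted p = 0.0463), and E2f2 from 54 and 85 to 9 and 35 (-1.86 ± 0.46, adjusted p = 0.0285). In all 3 the 12 h libraries lay below both starved libraries. All 3 calls were lost without EV 0 h replicate 2, with an adjusted p of 0.0741 for E2f7, 0.691 for E2f8 and 0.384 for E2f2, and the E2f8 change was then -0.50, while it was -1.71 without EV 0 h replicate 1. E2f2 and E2f8 were also lost without EV 12 h replicate 1 (0.392 and 0.312), where E2f2 changed by -0.93 (-2.78 without EV 12 h replicate 2), and E2f8 without EV 12 h replicate 2 (0.0817). Quantile normalization also ended the calls of E2f2 (0.0814) and E2f8 (0.0514). Leaving out both EV 2 h libraries, which do not belong to this comparison, gave E2f8 an adjusted p of 0.0588. Of the 20 S phase genes, 18 fell and 0 rose in the same libraries, against 3.42% and 0.749% of all genes, with a median of -0.91 against 0.00 over all genes. Every gene of this list stood higher in EV 0 h replicate 2 than in replicate 1, such as Mcm2 at 3123 against 2374. No result without single libraries is given here for the list, so how far its falls rest on that library was not tested.

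**Figure D2:**
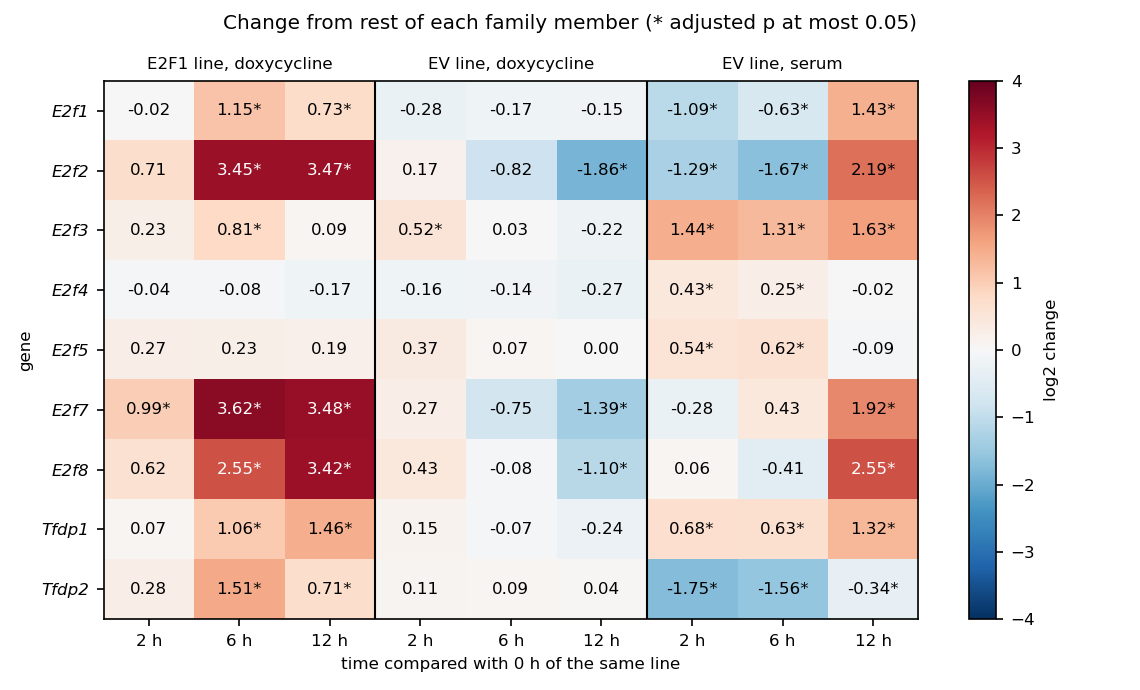
Log2 change from the 0 h libraries of the same line for the 9 members (rows) at 2, 6 and 12 h of each course (columns); a star marks an adjusted p of at most 0.05. The E2F1 line has 7 starred rises at 6 h, and E2f4 and E2f5 have stars only in the serum columns at 2 and 6 h.

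The change in the E2F1 line was then compared with the change in the EV line at the same time of doxycycline, and 7 of 9 members differed at 6 h. At 2 h, 0 of 9 members passed this limma test, against 0.143% of all genes (0.0535% with the higher change in the E2F1 line and 0.0892% with the lower). An unadjusted p under 0.05 was held by 872 of 11208 genes and by 1 of the 9 members (E2f7, 0.73 ± 0.30, adjusted p = 0.553). At 6 h, 7 of 9 changed more in the E2F1 line and none less, where 34.5% of all genes passed, 22.2% with more change and 12.3% with less. At 12 h it was 6 of 9 and none, where 50.5% of all genes passed, 27.3% with more change and 23.3% with less. At 12 h E2f2 differed by 5.32 ± 0.65 (adjusted p = 2.64e-06), where it was 1139 and 989 in the E2F1 line and 9 and 35 in the EV line. Without the EV library at 9 (EV 12 h replicate 1) the E2f2 difference was 4.40, and without the other it was 6.25. E2f7 differed by 4.88 ± 0.30 (adjusted p = 1.94e-09) and E2f8 by 4.52 ± 0.43 (adjusted p = 1.45e-07). Without EV 12 h replicate 1 the E2f7 difference was 4.96, so the order of E2f2 and E2f7 rests on that library. The E2f8 difference was 5.13 without EV 0 h replicate 1 and 3.92 without replicate 2, which held E2f8 at 171 and 397. The difference was smaller for Tfdp1, at 1.70 ± 0.12 (adjusted p = 5.55e-09), E2f1, at 0.88 ± 0.16 (adjusted p = 0.000141), and Tfdp2, at 0.68 ± 0.14 (adjusted p = 0.000575). E2f3 passed at 6 h (0.78 ± 0.16, adjusted p = 0.000784) and not at 12 h (0.31 ± 0.16, adjusted p = 0.106). In the direct contrast of the 12 h doxycycline groups, which adds the difference of the lines at rest, E2f3 did pass (0.66 ± 0.11, adjusted p = 3.48e-05).

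Serum moved the family in both directions before 12 h. At 2 h and at 6 h, 4 of 9 members rose and 3 fell, where 37.5% of all genes rose and 33.5% fell at 2 h, and 36.5% rose and 31% fell at 6 h. With 70.9% of all genes called at 2 h and 67.5% at 6 h, 7 of 9 is close to the background. With equal library totals 2 members rose and 4 fell at 2 h, with E2f7 (-0.65, adjusted p = 0.0106) among the falls. Of 11208 genes, 2611 then rose and 5907 fell, so the background moved the same way. At 12 h, 6 of 9 rose and 1 fell, where 65.7% of all genes were called, 36% higher and 29.7% lower. The serum comparisons and those of doxycycline in the EV line share the EV 0 h libraries.

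E2f1 first fell after serum. From 1635 and 1655 at 0 h it went to 802 and 740 at 2 h, 1186 and 956 at 6 h, and 4615 and 4247 at 12 h. The 2 and 6 h libraries lay below the starved ones and the 12 h libraries above them, with changes of -1.09 ± 0.11 (adjusted p = 5.76e-08), -0.63 ± 0.11 (adjusted p = 6.38e-05) and 1.43 ± 0.11 (adjusted p = 4.12e-09). Between 6 and 12 h E2f1 rose by 2.05 ± 0.11 (adjusted p = 4.18e-10).

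E2f2 followed a like course at a lower level. It stood at 54 and 85 at 0 h, 21 and 35 at 2 h, 25 and 17 at 6 h, and 298 and 330 at 12 h. The changes were -1.29 ± 0.46 (adjusted p = 0.0187), -1.67 ± 0.46 (adjusted p = 0.00395) and 2.19 ± 0.46 (adjusted p = 0.000439). The fall at 2 h was lost without EV 0 h replicate 2 (adjusted p = 0.14) or serum 2 h replicate 1 (0.153), and under quantile normalization (-0.23, 0.596). The fall at 6 h was lost under quantile normalization (-0.46, adjusted p = 0.297) and against the EV line at 6 h of doxycycline (-0.85, 0.116).

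E2f3 was the activator that rose at every serum time. It stood at 742 and 854 at 0 h, 2157 and 2164 at 2 h, 1920 and 2037 at 6 h, and 2628 and 2305 at 12 h. All serum libraries lay above the starved ones, with changes of 1.44 ± 0.11 (adjusted p = 1.45e-09), 1.31 ± 0.11 (adjusted p = 8.2e-09) and 1.63 ± 0.11 (adjusted p = 9.36e-10). The further rise from 6 to 12 h (0.32 ± 0.11, adjusted p = 0.0292) was lost without serum 6 h replicate 1 (0.128), 6 h replicate 2 (0.0551) or 12 h replicate 1 (0.23).

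The repressors passed the test at 2 and 6 h of serum. E2f4 stood at 3466 and 3471 at 0 h, 4688 and 4638 at 2 h, 4646 and 3680 at 6 h, and 3490 and 3362 at 12 h. Its rise was 0.43 ± 0.11 after 2 h (adjusted p = 0.00177) and 0.25 ± 0.11 after 6 h (adjusted p = 0.0461). Neither rise held with equal library totals (0.05 and 0.04, adjusted p = 0.675 and 0.76) or quantile normalization (0.06 and 0.01, adjusted p = 0.623 and 0.953). The 6 h rise was lost without EV 0 h replicate 1 (adjusted p = 0.116), EV 0 h replicate 2 (0.111) or serum 6 h replicate 1 (0.09, adjusted p = 0.531), and without both EV 2 h libraries (0.0509).

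E2f5 stood at 582 and 594 at 0 h, 866 and 845 at 2 h, 882 and 927 at 6 h, and 524 and 586 at 12 h. The 2 and 6 h libraries lay above the starved ones, and 1 of the 12 h libraries lay between them. Its rise was 0.54 ± 0.12 after 2 h (adjusted p = 0.000651) and 0.62 ± 0.12 after 6 h (adjusted p = 0.000207), and E2f5 then fell by 0.71 ± 0.12 from 6 to 12 h (adjusted p = 0.000159). With equal library totals the 2 h rise was 0.17 (adjusted p = 0.206) and against the EV line at 2 h of doxycycline it was 0.17 (0.232). Equal totals moved the median of all genes by -0.37 at 2 h and -0.21 at 6 h of serum.

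The atypical repressors rose late in serum. E2f7 stood at 464 and 664 at 0 h, 487 and 429 at 2 h, 659 and 851 at 6 h, and 2349 and 1876 at 12 h. E2f8 stood at 171 and 397 at 0 h, 278 and 267 at 2 h, 173 and 222 at 6 h, and 1603 and 1459 at 12 h. For both, the 2 and 6 h libraries overlapped the starved ones and the 12 h libraries were above all of these. At 12 h E2f7 rose by 1.92 ± 0.21 (adjusted p = 4.07e-07) and E2f8 by 2.55 ± 0.30 (adjusted p = 8.49e-07). The E2f8 rise was 1.94 without EV 0 h replicate 1 and 3.15 without EV 0 h replicate 2. Against the EV line at 12 h of doxycycline, in place of 0 h, the 12 h serum rise was 3.31 for E2f7, 3.65 for E2f8 and 4.05 for E2f2. At 6 h the E2f7 difference of 0.43 from 0 h did not pass, but it was 1.18 against the EV line at 6 h of doxycycline (adjusted p = 9.38e-05), and it also passed without EV 0 h replicate 2 (0.69, adjusted p = 0.0213) or serum 6 h replicate 1 (0.62, 0.0448).

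The DP genes moved in opposite directions after serum. Tfdp1 stood at 4789 and 5216 at 0 h, 8124 and 7947 at 2 h, 8062 and 7398 at 6 h, and 13065 and 11946 at 12 h. Tfdp2 stood at 1579 and 1476 at 0 h, 419 and 493 at 2 h, 536 and 501 at 6 h, and 1278 and 1145 at 12 h. Every serum library lay above the starved ones for Tfdp1 and below them for Tfdp2. The rise of Tfdp1 was 0.68 ± 0.08 after 2 h (adjusted p = 6.2e-07) and 1.32 ± 0.08 after 12 h (adjusted p = 4.24e-10). The Tfdp2 changes at 2, 6 and 12 h were -1.75 ± 0.10 (adjusted p = 2.71e-11), -1.56 ± 0.10 (adjusted p = 2.33e-10) and -0.34 ± 0.10 (adjusted p = 0.00628). The 12 h fall was lost without EV 0 h replicate 1 (adjusted p = 0.0551) or serum 12 h replicate 2 (0.076). From 6 to 12 h of serum, 7 of 9 members rose and 1 fell, where 39.9% of all genes were called, 19.3% higher and 20.6% lower.

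The 6 h changes of E2F1 and of serum differed for most members. E2F1 gave the higher change for 6 of 9 and the lower for 1, where 57.9% of all genes differed, 30.3% higher and 27.6% lower. The difference was 5.12 ± 0.65 for E2f2 (adjusted p = 2.83e-06), 3.19 ± 0.30 for E2f7 (adjusted p = 8.12e-08) and 3.07 ± 0.14 for Tfdp2 (adjusted p = 3.11e-11). At 6 h Tfdp2 stood at 3974 and 3685 in the E2F1 line and at 536 and 501 in serum. E2f8 differed by 2.96 ± 0.43 (adjusted p = 1.15e-05), with 3.57 without EV 0 h replicate 1 and 2.36 without replicate 2. The difference was smaller for E2f1, at 1.78 ± 0.16 (adjusted p = 2.9e-08), and Tfdp1, at 0.43 ± 0.12 (adjusted p = 0.00412). E2f3 was the member with a lower change under E2F1 (-0.50 ± 0.16, adjusted p = 0.00988). That call was lost without E2F1 line 6 h replicate 2 (adjusted p = 0.068), E2F1 line 0 h replicate 1 (0.052) or EV 0 h replicate 1 (0.0531), and in the direct contrast of the 6 h groups (-0.16, 0.216). E2f4 (-0.34 ± 0.15, adjusted p = 0.068) and E2f5 (-0.39 ± 0.17, adjusted p = 0.0622) did not pass. Under quantile normalization E2f5 did (-0.47, adjusted p = 0.0338), for 6 members higher and 2 lower, where 3042 of 11208 genes were higher and 3252 lower. E2f4 passed with the replicate number as a block (-0.34, adjusted p = 0.0407), and without E2F1 line 6 h replicate 1 (-0.50, 0.0109), E2F1 line 0 h replicate 2 (-0.44, 0.0345) or serum 6 h replicate 2 (-0.50, 0.00791).

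At 12 h, when both stimuli had raised E2f1, E2f2, E2f7, E2f8 and Tfdp1, fewer members differed. E2F1 gave the higher change for 2 of 9 and the lower for 2, where 48.8% of all genes differed, 25% higher and 23.8% lower. The 4 of 9 is close to the background, and the count depends on the reference, as given below. E2f7 (1.57 ± 0.30, adjusted p = 0.000349) and Tfdp2 (1.05 ± 0.14, adjusted p = 8.07e-06) changed more under E2F1. E2f3 (-1.53 ± 0.16, adjusted p = 3.91e-07) and E2f1 (-0.70 ± 0.16, adjusted p = 0.00114) changed less. For E2f1 this holds for the mouse row, which may not count RNA from the construct. The differences for E2f2 (1.27 ± 0.65, adjusted p = 0.117), E2f8 (0.87 ± 0.43, adjusted p = 0.102) and Tfdp1 (0.13 ± 0.12, adjusted p = 0.366) did not pass. E2f2 did pass under quantile normalization (1.33, adjusted p = 0.0458), with a pseudocount of 8 (1.29, 0.0493) and in a fit limited to these groups (1.27, 0.0131). Under quantile normalization 3 members were then higher and 2 lower, where 2666 of 11208 genes were higher and 2802 lower. E2f8 passed without EV 0 h replicate 1 (1.47, adjusted p = 0.00322) and was 0.26 without EV 0 h replicate 2. The direct contrast of the 12 h groups, which adds the difference of the lines at rest, had E2f8 higher in the E2F1 line by 1.92 ± 0.30 (adjusted p = 2.3e-05). It called 8 of 9 members, 6 higher and 2 lower, but the share of all genes called in it is not given here, so this count has no background.

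**Figure D3:**
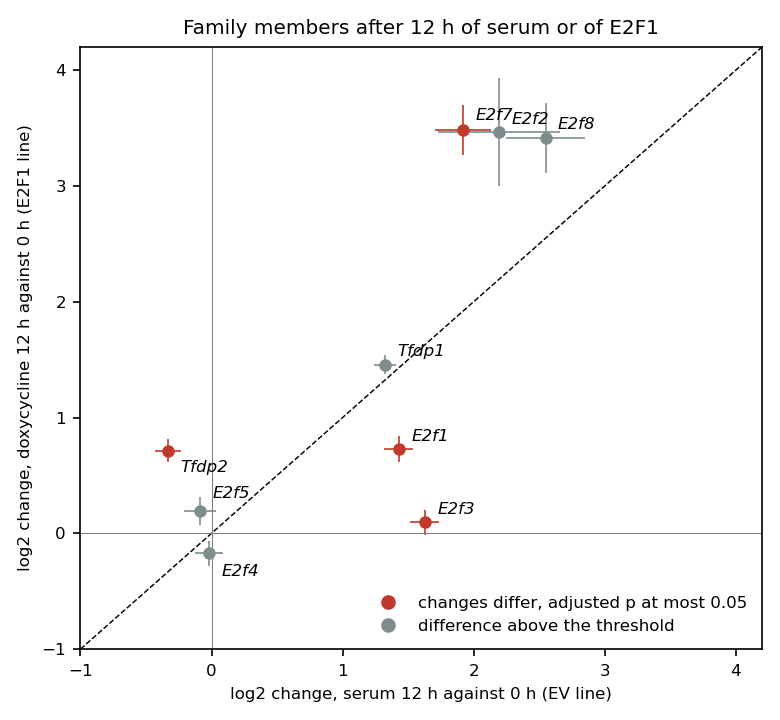
Log2 change from 0 h after 12 h of doxycycline in the E2F1 line (vertical axis) against that after 12 h of serum in the EV line (horizontal axis) for the 9 members, with bars of 1 SE and a dashed line of equal change. E2f7 and Tfdp2 lie above the line and E2f1 and E2f3 below it with a difference that passed the test.

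The make-up of the E2F transcripts differed between the stimuli at 12 h. Per kb of exon, E2f7 and E2f8 together made up 7.08% and 6.59% of the summed E2f level in the starved E2F1 line (replicates 1 and 2, E2f6 not counted). Their share was 32.3% and 31.8% at 6 h and 41.4% and 39.7% at 12 h of E2F1 induction. At 12 h of serum it was 13.0% and 11.9%, from 3.33% and 5.65% in the starved EV line. The activators made up 24.9% and 26.7% at 12 h of E2F1 induction and 46.9% and 45.8% at 12 h of serum. The libraries of the 2 stimuli did not overlap in either share at 12 h, and with 2 libraries a group no test of the shares was made. All shares use the mouse E2f1 row, and whether it counts RNA from the construct is not known. With the longest transcript as length, the atypical share at 12 h was 49.0% and 47.1% under E2F1 and 16.7% and 15.3% in serum.

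**Figure D4:**
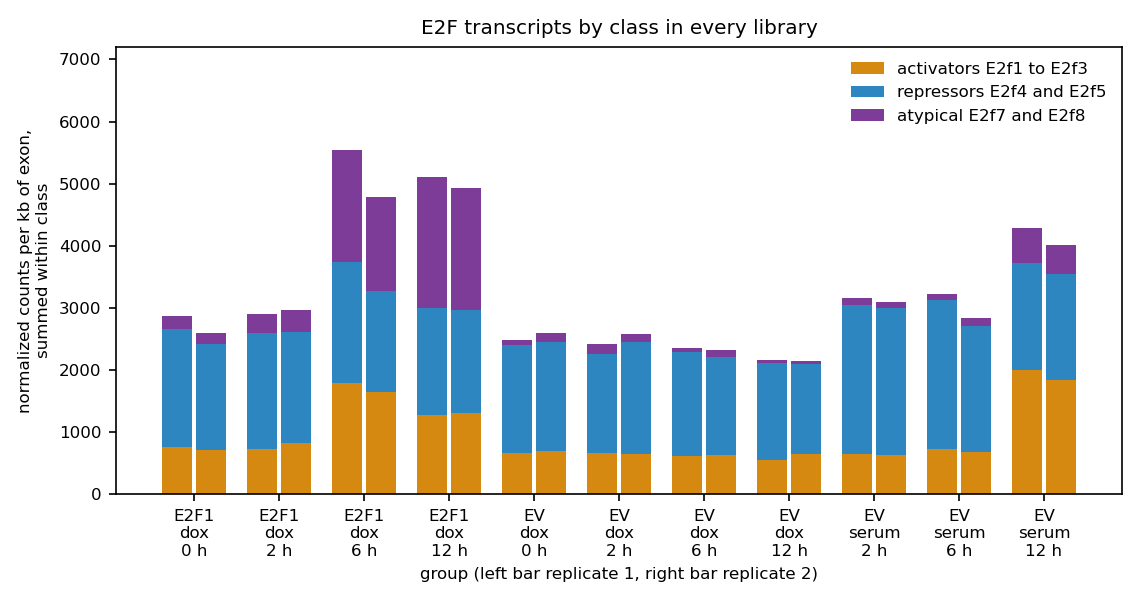
Stacked normalized counts per kb of annotated exon of the activators, repressors and atypical members (E2f6 not counted) in each library, 2 bars per group. The atypical segment reaches 2117 and 1957 at 12 h in the E2F1 line, against 555 and 476 at 12 h of serum.

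Ratios between members within a library do not depend on the scale of the library. The ratio of E2f7 to E2f1 per kb was 0.179 and 0.150 in the starved E2F1 line, 0.949 and 0.869 at 6 h and 1.22 and 1.01 at 12 h. In serum at 12 h it was 0.178 and 0.155, inside the range of the other EV libraries. The ratio of E2f8 to E2f1 was 1.27 and 1.16 at 12 h of E2F1 induction and 0.201 and 0.199 at 12 h of serum. These ratios to E2f1 use the mouse row, which may not count RNA from the construct. Tfdp1 exceeded Tfdp2 per kb in every library. Their ratio was 19.8 and 17.6 in the starved E2F1 line, 13.9 and 13.4 at 6 h and 29.4 and 33.1 at 12 h. In the EV line it was 11.6 and 13.5 at rest and 74.1 and 61.6 at 2 h of serum.

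Genes that act with the family were counted in lists chosen with earlier results of these data known. Of 10 pocket protein and MuvB genes, which form the repressor complexes of resting cells and the later activator complexes, 7 were higher and 1 lower at 6 h of E2F1 induction, and 8 were higher and 0 lower at 12 h. Of all genes, 51.7% were called at 6 h, 28.8% higher, and 61.5% at 12 h, 31.8% higher. At 12 h of serum 6 of the list were higher and 3 lower, where 36% of all genes were higher and 29.7% lower. The list's median at 12 h was 1.83 under E2F1 and 0.77 in serum, against -0.02 and 0.05 over all genes.

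Rb1, which encodes the pocket protein that binds activator E2Fs, moved in opposite directions. It stood at 514 and 478 at rest and 2867 and 2209 at 12 h in the E2F1 line (2.34, adjusted p = 1.26e-09), and at 642 and 605 at rest and 319 and 312 at 12 h of serum (-0.98, adjusted p = 3.24e-05). The difference of the changes was 3.32 (adjusted p = 4.24e-09). Mybl2, a partner of MuvB in the late cell cycle, rose in both, by 3.35 under E2F1 and 3.41 in serum at 12 h.

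Of 16 G1 cyclin, kinase and inhibitor genes, 13 were in the table, and 10 were higher and 2 lower at 12 h under E2F1 and in serum alike, where 61.5% and 65.7% of all genes were called, 31.8% and 36% higher. The genes that fell were not the same. Ccnd2 (-0.98) and Ccnd1 (-0.74), which encode D-type cyclins, fell at 12 h in the E2F1 line, while the inhibitor genes Cdkn1b (-0.98) and Cdkn2c (-0.41) fell in serum. In the EV line at 12 h of doxycycline Ccnd2 changed by 0.20 (adjusted p = 0.246) and Ccnd1 by -0.86 (adjusted p = 0.0502). The Ccnd2 changes of the lines differed by -1.18 (E2F1 minus EV, adjusted p = 3.91e-07), and for Ccnd1 the difference of 0.12 ± 0.34 did not pass (adjusted p = 0.797). Ccne1 and Ccne2, the cyclins that activate Cdk2 before S phase, had the largest rises in both, at 4.06 and 4.00 under E2F1 and 3.15 and 2.80 in serum. The inhibitor genes Cdkn2d (3.25) and Cdkn2c (2.65) had the largest excess under E2F1 over serum at 12 h.

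Among 9 genes for regulators of E2F protein, 7 were higher and 1 lower at 12 h of E2F1 induction, and 3 were higher and 3 lower in serum. With 61.5% and 65.7% of all genes called at these times, 6 of 9 in serum is close to the background. For 8 of the 9 the change was higher under E2F1 than in serum, and for 0 lower, where 48.8% of all genes differed, 25% higher. The largest of these differences was 2.52 for Ccnf, which encodes cyclin F, a ubiquitin ligase subunit, and it was followed by 1.77 for Fzr1, an activator of the anaphase-promoting complex.

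All 20 S phase genes were higher at 6 and 12 h of E2F1 induction and at 12 h of serum, where 28.8%, 31.8% and 36% of all genes were higher. At 12 h the rise was smaller under E2F1 for 10 of the 20 and larger for 1, with Cdc6 at -1.77 and Mcm5 at -1.64, both factors of replication licensing, and Tyms, thymidylate synthase, at 0.74. The list's median difference was -0.85, against 0.02 over all genes. These are differences of changes from 0 h, and the list already stood higher in the starved E2F1 line. There its median was 0.66 above the starved EV line, with 13 of 20 called higher, where 8.86% of all genes were higher and 6.17% lower. A smaller rise therefore need not mean a lower level at 12 h, but for Cdc6 and Mcm5 the level was lower too. Cdc6 stood at 1602 and 1770 at 12 h of E2F1 induction and at 3069 and 2615 at 12 h of serum. Mcm5 stood at 5674 and 6393 against 12093 and 10889, and Tyms was higher under E2F1, at 6611 and 6618 against 3622 and 2961. The changes in serum and the comparison at rest use the EV 0 h libraries, and no result without single libraries is given here for the list. Of 8 measured apoptosis genes linked to E2F1, of 10 listed, 7 were higher and 1 lower at 12 h of E2F1 induction, where 31.8% of all genes were higher and 29.7% lower. At 12 h of serum 3 were higher and 4 lower, where 36% of all genes were higher and 29.7% lower. Bbc3, which encodes the protein PUMA, rose by 0.59 ± 0.22 (adjusted p = 0.0261) in the E2F1 line and was among the 4 that fell in serum. In the EV line at 12 h of doxycycline Bbc3 changed by 0.40 ± 0.22 (adjusted p = 0.375), and the difference between the lines, 0.19 ± 0.31, did not pass (adjusted p = 0.638).

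The genes most like each member were ranked by Pearson's r of log2 levels over the 11 group means, as a description only, since all genes share these libraries. For E2f7 they were Usp1, a deubiquitinase (0.99), Lin9, a MuvB subunit (0.99), and Wee1, a kinase that delays mitosis (0.98). For E2f8 they were Pask, Atad2 and Ercc6l (0.99 each), and for E2f2 Dna2, a replication nuclease, Pask and Tcf19 (0.99 each). E2f1 was most like Atm, a DNA damage kinase (0.97), Tubgcp2 (0.96) and Rnaseh2a (0.96).

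Tfdp1 was most like Hpf1, Supt16 and Actl6a (0.99 each), the last a chromatin remodelling subunit, and Tfdp2 like Amigo1 (0.99), Vangl2 and Cbx6 (0.98 each). E2f3 was most like Pus1 (0.98), Trp53rka and Gcn1 (0.97 each). The repressors had lower values, with Capn2 (0.95), Slc2a1 (0.95) and Nuak2 (0.94) for E2f4 and Zfp9 (0.92), Zfp507 (0.89) and Atxn7l3 (0.88) for E2f5. Of these 27 places, 24 were also among the top 10 over the 22 libraries, and 14 among the top 10 by Spearman's rho.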

How the data were processed

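Poly(A) RNA of 22 NIH/3T3 libraries was sequenced as paired 150 base reads. Per the submitters' processing notes, FastQC, Trimmomatic, HISAT2, featureCounts and DESeq2 were used with the mm10 build. Versions, annotation and strand use are not given in the sources used here. The deposited table, which the authors named normalized counts, holds whole-number values treated here as a score and not as raw counts, so no count model was used and the depth in reads is unknown. How they were scaled is not given in the sources used here. The authors' deposited tables of changed genes hold log2 fold changes and adjusted p-values; their rows served as a description of E2f6 only.

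Group means of log2(value + 1) were fitted with limma 3.58.1 in R 4.3.3 on all 22 libraries and 11208 genes, with an empirical Bayes trend, Benjamini-Hochberg adjustment and a threshold of 0.05. No sample was dropped or imputed. The code was tested on simulated data. Of 11208 identifiers, 10977 matched GENCODE M21 with version; exon lengths came from it and promoters from RefSeq. The members and lists were chosen with earlier results of these data known. Named genes are the members, the first 3 genes of each list, the 2 largest rises and falls of a list in a comparison, and the 3 genes most like each member. Alternatives were a pseudocount of 8, a minimum mean of 500, quantile normalization, equal totals, only the groups compared, references at the same time, a replicate block, and leaving out libraries. Figures were drawn with matplotlib 3.10.9.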

Additional observations from a re-analysis of the deposited data

Results flagged for a closer look

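Differences between the changes of 2 courses that passed the limma test are given here as log2 values and were not weighed. For E2F1 against EV doxycycline at 6 h they were 1.32 for E2f1, 4.28 for E2f2, 0.78 for E2f3, 4.36 for E2f7, 2.63 for E2f8, 1.13 for Tfdp1 and 1.42 for Tfdp2. At 12 h they were 0.88 for E2f1, 5.32 for E2f2, 4.88 for E2f7, 4.52 for E2f8, 1.70 for Tfdp1 and 0.68 for Tfdp2. For E2F1 against serum at 6 h they were 1.78 for E2f1, 5.12 for E2f2, -0.50 for E2f3, 3.19 for E2f7, 2.96 for E2f8, 0.43 for Tfdp1 and 3.07 for Tfdp2. At 12 h they were -0.70 for E2f1, -1.53 for E2f3, 1.57 for E2f7 and 1.05 for Tfdp2. Without EV 0 h replicate 1 or 2, the E2f8 value was 3.24 or 2.03 against EV and 3.57 or 2.36 against serum at 6 h, and 5.13 or 3.92 against EV at 12 h. Without EV 12 h replicate 1 or 2, the E2f2 value against EV at 12 h was 4.40 or 6.25.

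E2f6 appeared outside the table of library values, with a log2 change of 4.02 in the authors' deposited table for 6 h of doxycycline in the E2F1 line. It has no library values here, so this change was not tested.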

How the results depend on the processing

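Of 79 calls among 153 member and comparison pairs, 61 held under every alternative run, 18 were lost under at least 1 and 0 reversed. Of the 74 pairs not called, 27 changed sign under some alternative, the largest at 0.43. With the replicate number as a block, 0 calls were lost and E2f4 was gained for E2F1 against serum at 6 h (adjusted p = 0.0407); with a block within each line, E2f3 between the starved lines was lost (adjusted p = 0.053). Over 55 pairs of groups the correlation of the deviations of same-numbered libraries ran from -0.28 to 0.45, with 18 above 0.1, so the numbers were not taken as pairs. Among the 0, 6 and 12 h doxycycline groups it was 0.14 to 0.36 in the E2F1 line and 0.30 to 0.45 in the EV line, and between these and the 2 h group of the same line -0.28 to -0.15 and -0.16 to -0.01. With only the groups compared, 2 members were called at 2 h of E2F1 induction, 0 at 2 h and 1 at 12 h of EV doxycycline, and 0 between the starved lines. Equal totals called 2 at 2 h of EV doxycycline, where 902 of 11208 genes were called. Against the EV line at the same time, 3 were called at 2 h for E2F1 against EV, and 8 at 12 h for E2F1 against serum. The shares of all genes called in these direct contrasts are not given here. Leaving out 1 library gave 0 to 1 calls at 2 h of E2F1 induction, 0 to 2 and 0 to 3 at 2 and 12 h of EV doxycycline, 0 to 3 between the starved lines and 3 to 4 from 6 to 12 h of E2F1 induction. Where a fit left 1 library in a group, that library was assumed to vary like the other groups. The causes were not tested. Of all genes called, the share that were higher moved by over 10 percentage points with the scaling: from 55.7% to 41.0% (quantile) at 6 h of E2F1 induction, from 52.8% to 30.7% and from 54.1% to 37.9% (equal totals) at 2 and 6 h of serum, from 48.4% to 69.6% (equal totals) from 6 to 12 h of serum, from 42.7% to 54.6% (equal totals) from 6 to 12 h of E2F1 induction, from 59.0% to 72.0% (equal totals) between the starved lines, and from 37.5% to 25.0% (equal totals), 64.5% to 44.5% and 54.0% to 43.5% (both quantile) for E2F1 against EV at 2, 6 and 12 h. With 2 libraries per group and depth in reads unknown, precision is limited, and E2f2, the lowest member per kb at rest, had the largest SE of a change from 0 h among the 9 members (0.46).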
